A study of Tachysurus ussuriensis with 12 samples.

Results

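A group of 196 assembled transcripts rose in the kidney of the Ussuri catfish between 0 h and 24 h of acute salinity stress, while their level in gill moved little. They were selected on measured values in FPKM, a fragment count corrected for transcript length and for library size, from 84875 transcripts. A transcript was taken when its mean FPKM over the 12 libraries was 2 or more, when its lowest kidney library of 24 h lay above its highest kidney library of 0 h, when the kidney difference of mean log2(FPKM + 1) was 1.5 or more, and when that difference in gill was smaller than 0.5 in either direction. The rise in kidney and the small change in gill are therefore what chose the transcripts and are given below as a description, with no weight as evidence.

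RNA was sequenced from gill and kidney of Tachysurus ussuriensis, a catfish of fresh waters. There were 3 libraries in each of the groups gill 0 h, gill 24 h, kidney 0 h and kidney 24 h. The labels name no group kept for 24 h without salinity stress, so a change over the 24 h cannot be assigned to salinity, and they do not say whether the libraries of a group come from separate fish. Salinity, age, sex and strain are not given in the labels. Libraries were close in sequencing depth, with relative depths of 0.858 to 1.12 recovered from the steps between low FPKM values. 1 library, kidney 0 h replicate 2, differed from the rest: its r with the other kidney libraries was 0.816 to 0.838 against 0.865 to 0.912 among those libraries, and its median FPKM over all transcripts was 1.26 against 1.85 to 2.22 elsewhere.

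In a freshwater fish the gill takes up salt from the water and the kidney makes a dilute urine, so that water entering by osmosis is removed while ions are reclaimed along the tubule. In salt water the osmotic gradient is reversed, and the kidney tubule is known to shift from excreting water to conserving it, with secretion of divalent ions. The teleost kidney is also a tissue of blood cell formation and, in its anterior part, of hormone secretion, so whole kidney RNA mixes tubule, blood-forming and endocrine cells. In such bulk RNA, more cells of a type and more RNA per cell cannot be told apart. The deposited values do not pair transcript IDs with gene names, so the roles of the 196 transcripts are unknown here, no marker could be used to check the tissues, and no sequence is shown.

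The selection narrowed in steps. Of 42379 transcripts with a mean FPKM of 2 or more, 5166 (12.2%) had all kidney libraries of 24 h above all those of 0 h, and 389 of these rose by 1.5 or more on the log2 scale. In gill, 196 of the 389 (50.4%) changed by less than 0.5, another 172 (44.2%) rose by 0.5 or more, and 21 (5.40%) fell by 0.5 or more. The thresholds fell within a continuous range: 41 of the 196 rose by less than 1.6 on the log2 scale. The smallest rise inside was 1.5004 and the largest outside 1.4991, the largest gill change inside was 0.496 and the smallest outside 0.501, and the lowest mean FPKM inside was 2.04 and the highest outside 1.996.

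The 196 transcripts were mostly of low to moderate abundance and rose several-fold in kidney. Their median FPKM was 2.17, 1.16 and 1.92 in kidney 0 h replicates 1 to 3 and 7.92, 10.6 and 9.03 in kidney 24 h replicates 1 to 3. In gill the medians were 2.05, 1.92 and 2.02 at 0 h and 1.99, 2.83 and 1.88 at 24 h. Before stress the kidney medians thus lay near those of gill or, in replicate 2, below them, and at 24 h all 3 kidney medians lay above all gill medians.

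**Figure D1:**
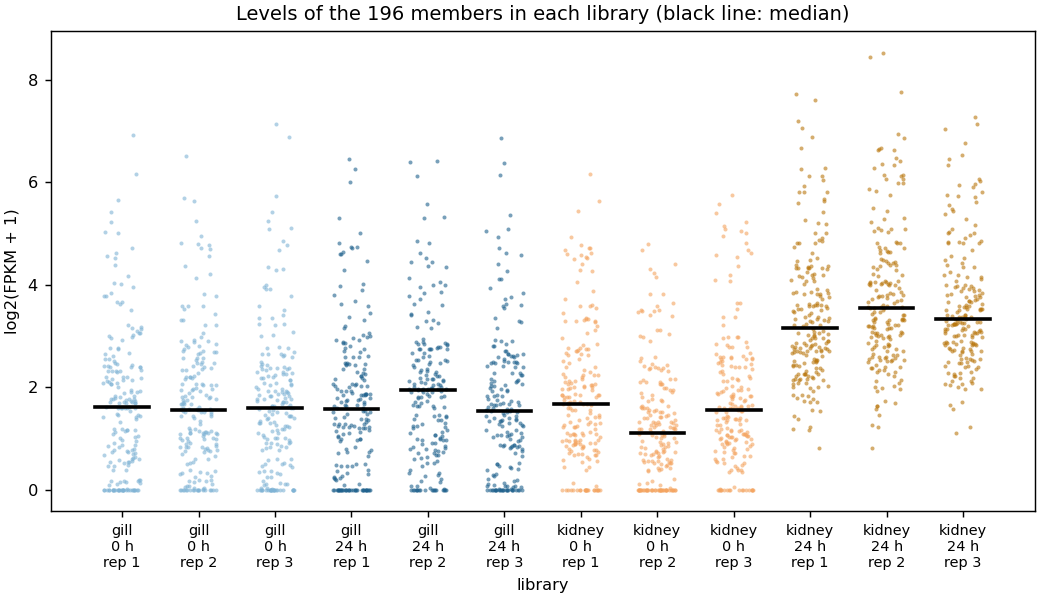
Each point is 1 of the 196 transcripts in 1 library, on a log2(FPKM + 1) axis, and the black line is the median of the library. The medians of the kidney 24 h libraries lie at 3.16 to 3.54, those of the other 9 libraries at 1.11 to 1.94, and the selection fixed this separation within kidney.

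The kidney rise had a median of 1.79 on the log2 scale, with quartiles of 1.63 and 2.05, and reached 4.37. It was 2 or more in 57 transcripts and 3 or more in 13. As a ratio of mean FPKM, the median was 5.03-fold among the 192 transcripts above 0 at 0 h. The gap between the groups was narrower: the lowest 24 h library exceeded the highest 0 h library by a median of 0.80 on the log2 scale, and by 0.05 in the transcript with the smallest gap. At 24 h the mean kidney level had a median of 8.87 FPKM and reached 100 FPKM or more in 4 transcripts, while 111 stayed below 10 FPKM and 25 below 5. In kidney at 0 h, 39 transcripts were listed at 0 in 1 library, 9 in 2 libraries and 4 in all 3.

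Across all tested transcripts, limma on log2(FPKM + 1) called 0.623% higher in kidney at 24 h than at 0 h (Benjamini-Hochberg adjusted p under 0.05), and 88 of the 196 were among them. In gill, 0.848% of tested transcripts were called in either direction, and 0 of the 196 were (2 had an unadjusted p under 0.05). The kidney change was called above the gill change in 0.0343% of tested transcripts, and in 7 of the 196. All 3 counts come from contrasts that the selection used and carry no information beyond it. All 196 passed the filter of the test, which asked for 3 libraries at an FPKM of at least 1. The kidney count fell to 1 in a fit to the kidney libraries alone. Over all tested transcripts that fit called 2 higher at 24 h, against 472 in the main fit. The count was 21 without kidney 24 h replicate 2, against 61 over all tested transcripts. It was 46 without kidney 24 h replicate 3 (148 over all) and 48 without replicate 1 (175 over all). Without kidney 0 h replicate 2 it was 87 (1262 over all).

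The transcript with the highest kidney level at 24 h was TRINITY_DN25467_c0_g3_i5_3. In kidney it had 48.8, 24.6 and 32.2 FPKM at 0 h and 209, 346 and 154 FPKM at 24 h. In gill it had 31.0, 26.4 and 33.1 FPKM at 0 h and 38.2, 46.6 and 32.2 FPKM at 24 h. Kidney and gill overlapped at 0 h, and at 24 h every kidney library was above every gill library. The kidney rise was 2.69 (SE 0.29) on the log2 scale, from a mean of 35.2 ± 12.4 to 236 ± 98.8 FPKM (SD, n = 3 each), and the gill change was 0.35 (SE 0.29). Averaged over both times, its kidney level exceeded its gill level by 1.34 log2 units (SE 0.21), a difference that lay at 24 h, the time for which the transcript was named, and is given with no test. Over the 12 libraries 29 other transcripts followed it at a Pearson r of 0.95 or more on log2(FPKM + 1), of which 6 belong to the 196.

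Among transcripts with a mean gill FPKM of 2 or more, TRINITY_DN25800_c0_g2_i1_4 had the largest kidney rise. It had 18.5 FPKM in kidney 0 h replicate 1 and was listed at 0 in replicates 2 and 3, and at 24 h it had 27.3, 36.4 and 31.5 FPKM. In gill it had 22.0, 29.9 and 26.5 FPKM at 0 h and 25.5, 38.5 and 20.2 FPKM at 24 h. Its kidney level at 24 h thus lay within the range of gill, and 2 kidney libraries of 0 h set it apart. Its kidney rise of 3.60 (SE 0.86) was not called (limma adjusted p = 0.0846). Without kidney 0 h replicate 1, the only one of its group above 0, the rise was 5.02 and was called (limma adjusted p = 6.68e-05), and with a pseudocount of 0.1 it was 5.79 and not called. Leaving out that library kept only kidney 0 h libraries listed at 0, and the SE was 0.25. Over all alternatives its adjusted p in limma ranged from 6.68e-05 to 0.363. The transcript was named for its kidney rise, so these p-values carry no weight as evidence. Its difference between tissues over both times was -1.56 (kidney minus gill, SE 0.61), and -2.27 without kidney 0 h replicate 1. Only 7 other transcripts followed it at an r of 0.95 or more over the 12 libraries, 1 of them among the 196.

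The transcripts at the ends of the group differed widely. The one with the largest kidney rise, 4.37 on the log2 scale, had 0.59, 4.16 and 3.95 FPKM in kidney at 0 h and 116, 62.0 and 48.0 FPKM at 24 h, and was at most 0.11 FPKM in any gill library. The one with the highest gill level had 121, 90.5 and 139 FPKM in gill at 0 h and 86.6, 84.3 and 115 FPKM at 24 h, against 29.4, 10.3 and 15.9 FPKM in kidney at 0 h and 68.5, 97.5 and 91.9 FPKM at 24 h. The first was near 0 in gill at both times, whereas the second was lower in kidney than in gill at 0 h in every library and overlapped with gill at 24 h. The transcript with the second largest rise, 4.20 on the log2 scale, was at most 0.04 FPKM in kidney at 0 h and had 15.8, 20.5 and 16.7 FPKM at 24 h, while gill had 7.30 FPKM in replicate 1 of 0 h, 3.49 FPKM in replicate 2 of 24 h and less than 0.1 FPKM in the other 4 libraries. Its gill level thus came from 1 library at each time.

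**Figure D2:**
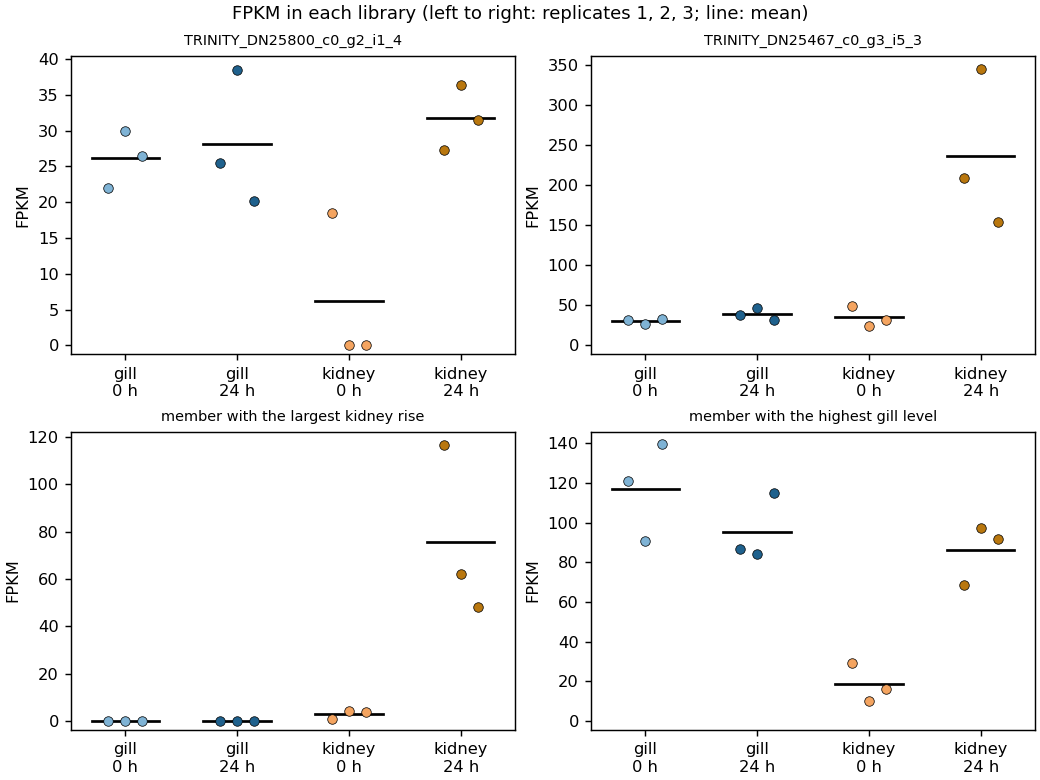
FPKM of 4 transcripts in each library, on linear axes that differ between panels, with replicates 1 to 3 from left to right and the group mean as a line. The kidney 24 h libraries lie above those of kidney 0 h in all panels, reaching 346 FPKM for TRINITY_DN25467_c0_g3_i5_3, while gill ranges from near 0 (largest rise) to above 80 FPKM (highest gill level).

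The transcripts differed in their kidney level relative to gill. Averaged over both times, 88 of the 196 (44.9%) were higher in kidney and 21 (10.7%) higher in gill by limma (adjusted p under 0.05), against 19.8% and 21.8% of all tested transcripts in the respective directions. The median difference was 0.72 on the log2 scale (kidney minus gill), with a range of -3.73 to 5.78, against 0.05 over all tested transcripts. Without kidney 0 h replicate 2, 118 of the 196 were called between tissues, against 109 with it. Over all tested transcripts 35097 were called without that library, against 31488 with it. Averaging over times makes this contrast separate from the changes used for the selection, but not free of it: a rise of 1.5 sets a floor on the kidney level and none on the gill level, and a transcript near 0 in gill meets the gill condition by its low level alone. The sets chosen by mirrored rules had shares on this scale as follows: of 48 transcripts that rose in both tissues 47.9% were higher in kidney and 10.4% in gill, and of 49 that fell in kidney only 42.9% and 16.3%. Among 78 that rose in gill only, 3.85% were higher in kidney and 66.7% in gill. The differences between these sets were not tested.

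**Figure D3:**
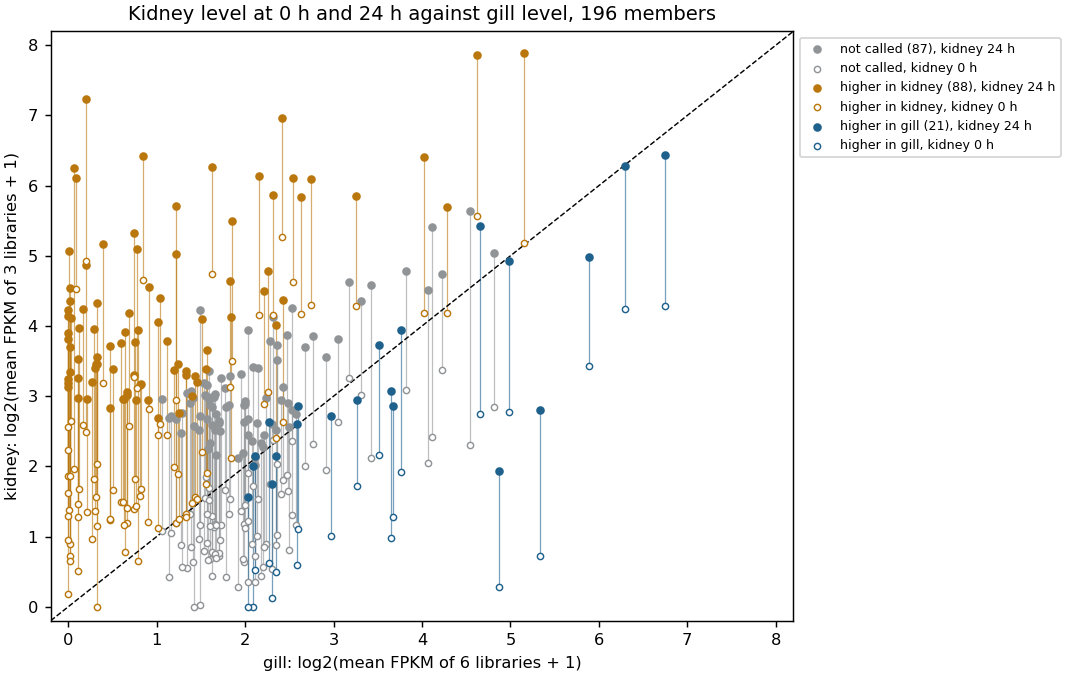
Each vertical line is 1 of the 196 transcripts, from its mean kidney level at 0 h (open) to that at 24 h (filled), placed along the horizontal axis by its mean gill level, both as log2(mean FPKM + 1), with the dashed line marking equal levels. The counts here take gill at the same time, not over its 6 libraries as on the axis. At 24 h the mean kidney level exceeds the mean gill level in 180 of the 196 transcripts, and in 6 of the 21 higher in gill, against 92 and 0 at 0 h. The selection of low kidney values at 0 h and high ones at 24 h favours this shift. The counts among the 21 are also conditioned on the call. No share over all transcripts is given beside these counts.

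The 88 transcripts higher in kidney had a median of 0.66 FPKM in gill at 0 h and 0.82 at 24 h, and of 2.58 FPKM in kidney at 0 h and 14.4 at 24 h (medians over transcripts of the group means). All 88 had every kidney library of 24 h above every gill library of 24 h, against 29.1% of all transcripts with a mean FPKM of 2 or more, and 51 had the same at 0 h, against 18.2%. Both counts are conditioned on the call and on the selection of high kidney values at 24 h. The largest difference between tissues, 5.78 on the log2 scale (SE 0.27), belonged to a transcript with 24.4, 16.7 and 46.7 FPKM in kidney at 0 h and 145, 217 and 86.9 FPKM at 24 h, and at most 0.41 FPKM in gill. Its kidney level at 0 h was already far above its gill level at either time.

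The 21 transcripts higher in gill had a median of 10.1 FPKM in gill at 0 h and 11.1 at 24 h, against 1.01 FPKM in kidney at 0 h and 6.24 at 24 h. All 21 had every kidney library below every gill library at 0 h, against 22.6% of all transcripts with a mean FPKM of 2 or more, and 3 did at 24 h, against 25.5%. These counts are conditioned on the call and on the selection of low kidney values at 0 h. In the transcript with the lowest kidney level relative to gill, kidney had 0.30, 0.07 and 0.26 FPKM at 0 h and 3.00, 2.09 and 3.34 FPKM at 24 h, while gill ranged from 17.5 to 37.0 FPKM. It remained well below gill at 24 h, and in 6 of the 21 the mean kidney level at 24 h exceeded that of gill. The other 87 transcripts were not called between tissues. Their medians were 2.71 and 3.02 FPKM in gill and 1.24 and 6.65 FPKM in kidney, at 0 h and 24 h. In 39 of them (44.8%) every kidney library lay above every gill library at 24 h. The share was 29.1% over all transcripts with a mean FPKM of 2 or more. The selection of high kidney values at 24 h favours this count.

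Over all 196, every kidney library lay above every gill library in 51 transcripts (26.0%) at 0 h and in 127 (64.8%) at 24 h, against 18.2% and 29.1% of all transcripts with a mean FPKM of 2 or more. Every kidney library lay below every gill library in 51 (26.0%) at 0 h and 3 (1.53%) at 24 h, against 22.6% and 25.5%. Since the selection took low kidney values at 0 h and high ones at 24 h, the shift between times follows from it.

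Gill libraries were often low. All 6 gill libraries reached an FPKM of 1 in 87 of the 196 (44.4%), against 81.1% of transcripts with a mean FPKM of 2 or more, and no gill library did in 33 (16.8%), against 2.47%. These shares follow in part from the selection, since a transcript near 0 in gill could reach the minimum mean FPKM through kidney alone, and the median mean FPKM of the 196 was 3.86 against 5.05 for the transcripts beside them. In 13 transcripts every gill library was below 0.1 FPKM, and in 5 of these every gill library was listed at 0. Kidney levels at 24 h among these 13 ran from 1.14 to 55.1 FPKM. The third-ranked rise of the 196 was in this subset, with 0, 0.40 and 0 FPKM in kidney at 0 h and 27.0, 15.8 and 7.08 FPKM at 24 h, a rise of 3.80 on the log2 scale. Within the 13, kidney 24 h replicate 1 held the highest value in 5, replicate 2 in 5 and replicate 3 in 3, so no single library led them. In 1 of the 13 the rise rested mainly on replicate 2, with 1.91, 33.1 and 1.14 FPKM at 24 h after 0.59, 0.47 and 0.65 FPKM at 0 h.

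The 7 transcripts whose kidney change was called above their gill change all belonged to the 88 higher in kidney. Their mean gill level was between 0 and 0.56 FPKM, and their mean kidney level went from 0.13 to 2.90 FPKM at 0 h to between 10.6 and 75.5 FPKM at 24 h. The difference between the changes ranged from 2.64 to 4.34 on the log2 scale (limma adjusted p = 0.0348 to 0.0453). The selection used this contrast, and of the 13 transcripts below 0.1 FPKM in every gill library, 3 were among the 7. The count was 0 when 1 library was left out among gill 0 h replicates 1 and 3, the 3 gill 24 h replicates, kidney 0 h replicate 3 and kidney 24 h replicate 2. Over all tested transcripts those fits called 0 to 2 in this direction, against 26 in the main fit. The count among the 196 was 17 without gill 0 h replicate 2, against 327 over all tested transcripts. It was 6 without kidney 0 h replicate 2 (34 over all) and 4 without kidney 0 h replicate 1 (7 over all). Without kidney 24 h replicate 1 or 3 it was 3 (3 and 4 over all).

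Single libraries contributed unequally. Kidney 24 h replicate 2 held the highest of the 3 values at 24 h in 100 of the 196 (51.0%), against 30.7% of transcripts with a mean FPKM of 2 or more, replicate 3 in 63 (32.1%, against 37.9%) and replicate 1 in 33 (16.8%, against 31.4%). In gill, which the selection limited only in its mean change, replicate 2 of 24 h was the most often highest of its group, in 90 (45.9%, against 39.8%). It led over all transcripts with a mean FPKM of 2 or more as well, where gill 24 h replicates 1 and 3 held 30.1% each. At 0 h, kidney replicate 2 was the lowest of its group in 114 (58.2%). Its share over all transcripts with a mean FPKM of 2 or more was close, at 59.3%. It was less often the highest of its group, in 23 (11.73%, against 25.05%). Replicate 1 was the highest in 96 (48.98%, against 36.26%) and replicate 3 in 77 (39.29%, against 38.69%). The selection without kidney 0 h replicate 2 kept 126 of the 196, the fewest for any kidney library left out. Leaving out another kidney library kept 139 to 179. The labels do not say whether the same fish gave both tissues.

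When the selection was repeated without 1 kidney library, the library left out had not entered the choice, but the kidney libraries it was compared with had been chosen as low at 0 h or high at 24 h. The shares are therefore favoured by the selection, and the shares over all transcripts beside them are not what no change would give. Without kidney 24 h replicate 1, 276 transcripts were chosen, and in 204 (73.9%) the left-out library lay above all kidney libraries of 0 h, against 27.2% of all transcripts with a mean FPKM of 2 or more. The same share was 87.0% of 185 for replicate 2 and 83.2% of 238 for replicate 3, against 27.5% and 26.7%. At 0 h, the left-out library lay below all kidney libraries of 24 h in 74.6% of 334 for replicate 1, 87.9% of 182 for replicate 2 and 77.2% of 337 for replicate 3, against 34.9%, 53.2% and 32.9%. The median rise with the left-out library was smaller than in the libraries used in 5 of the 6 cases. It was 1.05 for kidney 0 h replicate 1, 1.07 for 0 h replicate 3, 1.24 for 24 h replicate 1 and 1.40 for 24 h replicate 3, against 1.73 to 1.85 in the libraries used. It was 1.83 for 0 h replicate 2, the library with the low median, and 1.76 for 24 h replicate 2.

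**Figure D4:**
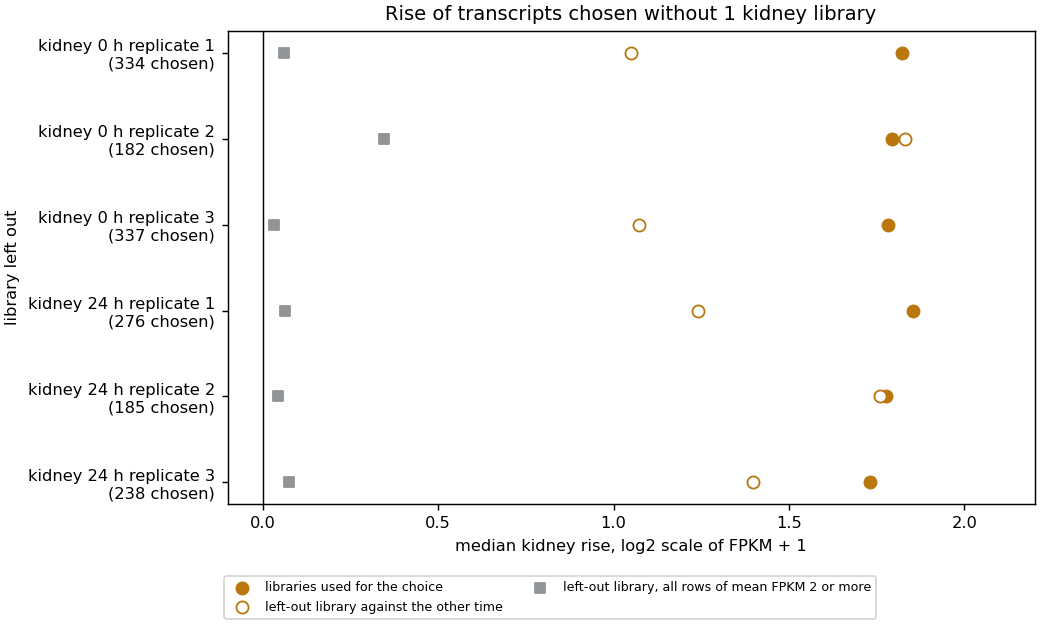
Median kidney rise (log2 scale of FPKM + 1) of transcripts chosen without 1 kidney library, measured in the libraries used (filled) and with the library left out against the mean of the other time (open), beside the left-out library over all transcripts with a mean FPKM of 2 or more (squares). Open circles lie between 1.05 and 1.83, and squares between 0.03 and 0.35.

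The number that ends the transcript ID, from 1 to 4 and of unknown meaning, was unevenly represented. IDs ending in 1 made up 115 of the 196 (58.7%), against 25.9% of transcripts with a mean FPKM of 2 or more, while 20 ended in 2, 30 in 3 and 31 in 4. Expressed the other way, 1.05% of the transcripts ending in 1 were selected, against 0.206% to 0.293% for the other numbers. The share ending in 1 was 50.0% among transcripts that rose in both tissues, 33.3% among those that rose in gill only and 12.2% among those that fell in kidney only. Among the 389 that rose in kidney with any gill change, which include the 196, it was 55.0%. Over all transcripts with a mean FPKM of 2 or more, those ending in 1 had a median kidney change of 0.21 on the log2 scale, against 0.02 to 0.04 for the other numbers, and in gill 0.08 against -0.03 to 0.02. The part of this shift in the selection was not tested. Among the 196 the kidney rise had medians of 1.80, 1.73, 1.82 and 1.74 for 1 to 4, a closeness that the minimum rise of 1.5 favours. The tissue difference (kidney minus gill) had medians of 0.80, -0.32, 1.78 and -0.14. Over all transcripts with a mean FPKM of 2 or more the medians were 0.17, -0.36, 0.35 and -0.06, in the same order of numbers. Of the 196, 70.0% of those ending in 3 were higher in kidney and 3.33% higher in gill, against 32.8% and 8.42% of all tested transcripts with that ending. Of those ending in 4 the shares were 32.3% and 25.8%, against 16.1% and 27.4%.

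**Figure D5:**
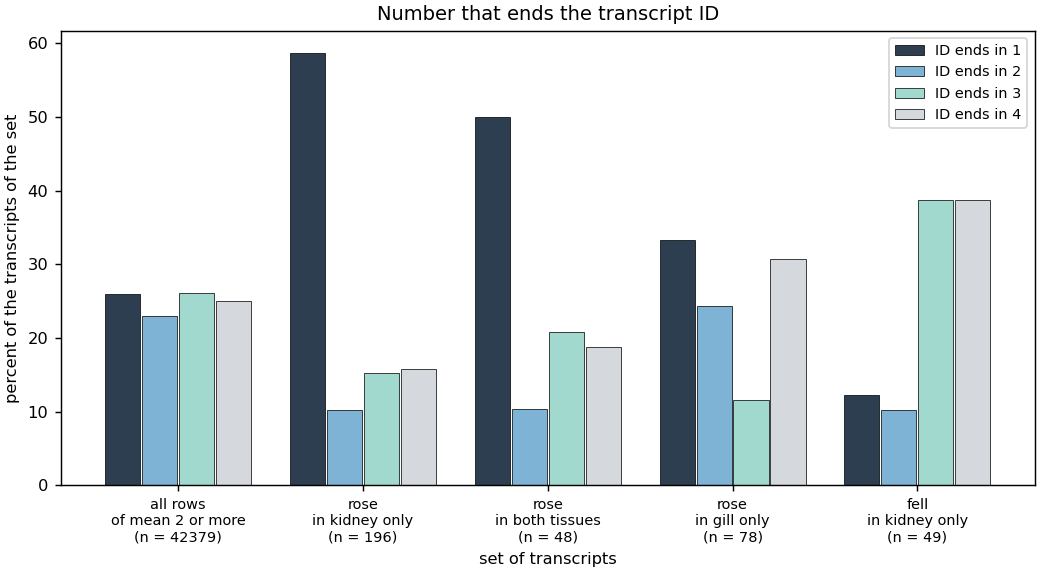
Percent of transcripts whose ID ends in 1, 2, 3 or 4, for all transcripts with a mean FPKM of 2 or more and for 4 sets chosen by their changes. The bar for 1 reaches 58.7% in transcripts that rose in kidney only, against 25.9% in all and 12.2% in those that fell in kidney only.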

How the data were processed

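The authors deposited FPKM for 84875 assembled transcripts in 12 columns. Their fragment counts were not used here. The submitters' processing notes name Trimmomatic; the assembler, aligner and counter were not given in the sources used here. IDs have the form written by Trinity. Groups were taken from tissue and time in the labels (12 libraries, 4 groups of 3); p-values measure the spread between these libraries, which may be technical.

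The selection rule was applied to the whole table in Python 3.11.15. limma 3.58.1 in R 4.3.3 (4 group means, mean-variance trend, 8 residual degrees of freedom) was fitted to log2(FPKM + 1) of transcripts with 3 libraries at an FPKM of at least 1, with two-sided Benjamini-Hochberg adjusted p under 0.05 over all of them; folds on this scale understate changes of low transcripts. The test was checked on simulated data with independent noise and with changes placed only in transcripts above a set mean level. The recovery of changes at lower levels and any pairing of libraries were therefore not covered. The 196 transcripts and the sets beside them were chosen with earlier results of these data known. Named by rule were the largest kidney rise with mean gill FPKM of 2 or more and the highest kidney 24 h mean; other transcripts were picked for their values. Alternatives were another pseudocount, 3 scalings, no filter, a replicate block, library weights, single-tissue fits, other thresholds and leaving out each library.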

Additional observations from a re-analysis of the deposited data

Results flagged for a closer look

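The change over 24 h differed between kidney and gill in 7 of the 196 transcripts by limma's test of the difference itself (adjusted p under 0.05), each with more change in kidney. Over all tested transcripts the share called in that direction was 0.0343%. The transcripts had been chosen for a kidney rise and a small gill change, so a difference in this direction was fixed by the choice. The largest difference was 4.34 log2 units (SE 0.60; adjusted p by limma 0.0443).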

How the results depend on the processing

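1 alternative, the replicate block within time, was chosen after seeing the data. The 109 transcripts called between tissues stayed at 107 to 120 under 8 alternatives (107 with the replicate block, 114 with it within time) and 99 to 118 without single libraries. Over all tested transcripts, calls between tissues numbered 31488 in the main fit and 30473 to 35728 under these 8 alternatives. They numbered 28341 to 35097 without single libraries. No gill change of the 196 was called under any alternative, which the gill bound of the selection favours. Over all tested transcripts 642 were called in gill in the main fit. The selection gave 344 transcripts with a pseudocount of 0.1 (129 of them among the 196), 708 and 57 with a minimum rise of 1 and 2, 121 and 295 with a gill bound of 0.25 and 1, 297 and 74 with a minimum mean FPKM of 1 and 5, and 182 to 337 without single libraries, 126 to 179 of the 196 among those chosen without a kidney library. Kidney calls among the 196 fell from 88 to 51 with a pseudocount of 0.1, 58 with the replicate block and 1 in the kidney fit alone. They ranged from 21 to 87 without single libraries. Over all tested transcripts, calls higher in kidney at 24 h went from 472 to 266, 231 and 2 in the same order. They ranged from 61 to 1262 without single libraries. Calls of the difference between changes among the 196 went from 7 to 0 with a pseudocount of 0.1 and 4 with median-ratio scaling. They were 0 with the replicate block, 15 with library weights, and 0 to 17 without single libraries. Over all tested transcripts, calls with the kidney change above went from 26 to 1, 26, 3 and 62 in the same order. Without single libraries they were 0 to 327. The cause was not tested. The share of transcripts with the left-out kidney library on the side of its time ranged from 73.9% to 87.9% (median 80.2%). Over all transcripts with a mean FPKM of 2 or more it ranged from 26.7% to 53.2%. The highest value of both ranges was that of kidney 0 h replicate 2. The selection favours the shares among the transcripts chosen. TRINITY_DN25467_c0_g3_i5_3 lost its kidney call in the kidney fit alone (limma adjusted p = 0.122). The median kidney change of all tested transcripts was 0.10 as deposited and -0.01 with median-ratio scaling, and the selection then gave 136. Deviations from the group means over the tested transcripts correlated between same-numbered gill and kidney libraries at 0.137, 0.111 and 0.109 at 24 h, where the 6 other pairs were at -0.0899 to -0.0212, but at -0.00854 to 0.0915 at 0 h and -0.0493 to 0.0797 between times. Deviations within a group sum to 0, so positive r in some pairs goes with negative r in others. Replicate numbers follow the titles, and the library names of gill and kidney 24 h replicate 3 end in different numbers. Whether tissues were paired was not tested, and the labels give no pairing. Fragment counts per value are unknown, which limits low levels most.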

Other observations

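IDs that share a component name of the assembly and the last number may be neighbours in it. The table holds at most 1 transcript for each gene part (g) of the ID and last number, which favours separate components. The 196 transcripts fell in 196 different components, and 63 of them had at least 1 other transcript of their component in the table. Of 93 such others with a mean FPKM of 2 or more, 31 (33.3%) rose by 0.5 or more in kidney on the log2 scale, against 17.0% of all transcripts of that abundance, and 3 rose by 1.5 or more. Their median kidney change was 0.28, against 0.08. Such transcripts can share reads with the selected ones, and the difference was not tested. They also have the same last number as the selected ones. Of the 196, 58.7% ended in 1, against 25.9% of all transcripts of that abundance. Among the latter, those ending in 1 had a median kidney change of 0.21, against 0.02 to 0.04 for the other numbers. The comparison was not matched for the last number.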
